A study of Homo sapiens with 6 samples.

Results

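The tyrosine kinases SYK, ZAP70, BTK, TEC, LYN, FGR, FYN and LCK and the phospholipase PLCG2, 9 genes that act in 1 signalling relay, were followed on arrays of the human leukemia line K562. They were taken by gene symbol, and all 9 had at least 1 probe set that carried their symbol alone, among 18417 genes measured in this way. K562 derives from a chronic myeloid leukemia and carries the BCR-ABL1 fusion kinase. The samples were 6 monoclonal K562 lines, 3 stably transfected by electroporation with the empty plasmid pEF1a (the vector lines) and 3 with pEF1a-Pu.2, all kept in puromycin at 2 μg/mL. Pu.2 is a murine cDNA that encodes an isoform of the ETS factor PU.1 without its N-terminal activation domain and with its DNA-binding domain, so the comparison asks which genes differ between lines that received this cDNA and lines that did not. Each line was 1 clone on 1 Affymetrix Human Gene 1.0 ST array, so n counts clones, and what is particular to a clone cannot be told apart from the handling of its RNA. The genes were named with the group differences on these 6 arrays already known, so they count as selected on the measured pEF1a-Pu.2 minus pEF1a differences. Those differences are therefore given as a description, with a standard error and no p, and the number of the 9 genes past the threshold of the fit over all genes is no evidence about them.

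Cells of the blood read many surface receptors through the same short relay. Src family kinases such as LYN, FGR, FYN and LCK are anchored under the membrane and phosphorylate tyrosine motifs, called ITAMs, in the tails of antigen and Fc receptors. SYK and ZAP70 dock on the phosphorylated ITAMs through a pair of SH2 domains and phosphorylate adaptors in turn. BTK and TEC are drawn to the membrane by the lipid product of phosphoinositide 3-kinase, and BTK activates the phospholipase PLCG2, which releases calcium and activates protein kinase C. The relay is best known from B cells, T cells, mast cells and phagocytes, and LYN is also a well-known kinase of myeloid leukemia cells. PU.1 is a known activator of the BTK gene.

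The values are log2 summaries of probe sets, and the median of all probe sets over the 6 arrays was 5.37. Array medians ran from 5.30 to 5.42. Probe sets differ in brightness for reasons other than RNA abundance, so values were compared between lines and not between genes. Of 7 measured K562 and erythroid marker genes, GATA1, TAL1, LMO2, TFRC, EPOR, KLF1 and NFE2, all lay at or above 5.37 in their mean. Of the markers of other blood cells this was so for 1 of 5 of B cells (CD79B), 1 of 6 of T cells (CD3D), 0 of 5 of monocytes and macrophages and 0 of 3 of mast cells. Vector line 3 stood apart. Across genes, which are not independent replicates, it correlated at r = 0.980 with the mean of the other vector lines and at r = 0.985 with the mean of the pEF1a-Pu.2 lines, whereas each other line was closer to its own group. Over all 18417 genes, limma with Benjamini-Hochberg adjustment called 27 higher and 41 lower in the pEF1a-Pu.2 lines at an adjusted p under 0.05, and without vector line 3 it called 432 in all.

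SYK, the kinase that docks on ITAMs in B cells and phagocytes, was the member that differed most between the groups. Its log2 value was 6.69, 6.72 and 6.24 in vector lines 1, 2 and 3 and 4.96, 5.13 and 5.14 in pEF1a-Pu.2 lines 1, 2 and 3. Every vector line lay above the median of all probe sets and every pEF1a-Pu.2 line below it, with a gap of 1.09 on the log2 scale between the lowest vector line and the highest pEF1a-Pu.2 line. The group means were 6.55 ± 0.27 and 5.07 ± 0.10 (SD, n = 3 lines each), a log2 difference of -1.48 (standard error 0.16) and thus lower in the pEF1a-Pu.2 lines. The pEF1a-Pu.2 values were below the median of all probe sets, and no detection calls were used. They thus cannot be told from background here, and no fold is given. In RNA of a whole culture, fewer cells with SYK RNA and less of it per cell cannot be told apart. Vector line 3, although it stood apart over all genes, stayed with the vector lines in SYK. This is a description only, since SYK was named with the group differences known. Without vector line 3 the difference was -1.63, and with any 1 line left out it ran from -1.63 to -1.39. ZAP70, the counterpart of SYK in T cells, had 5.06, 4.90 and 5.12 in the vector lines against 4.79, 5.04 and 4.86 in the pEF1a-Pu.2 lines. All 6 values lay below the median of all probe sets and the groups overlapped, with a log2 difference of -0.13 (standard error 0.13).

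**Figure D1:**
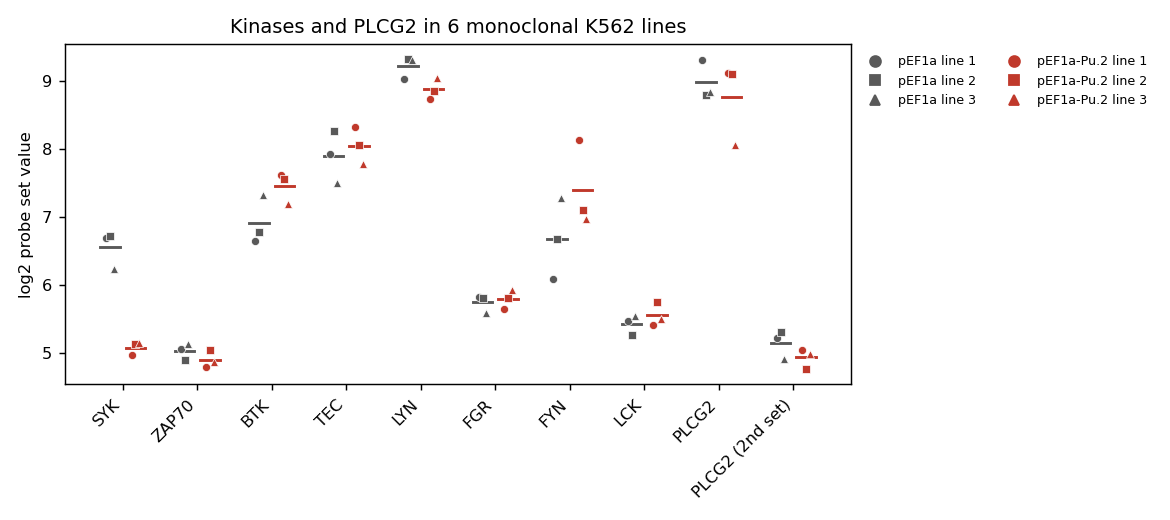
The 9 genes, and the second probe set of PLCG2, along the horizontal axis, with their log2 probe set values on the vertical axis. Each symbol is 1 clone and each bar a mean of 3 clones, gray for pEF1a and red for pEF1a-Pu.2. Heights are comparable within a gene only. In SYK the gray symbols lie at 6.24 to 6.72 and the red ones at 4.96 to 5.14, and in every other gene shown the colors overlap.

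The TEC family members differed less. BTK, which links SYK to PLCG2 in B cells, had 6.64, 6.78 and 7.32 in the vector lines against 7.62, 7.55 and 7.19 in the pEF1a-Pu.2 lines. The groups overlapped in 1 pair of lines, since vector line 3 lay above pEF1a-Pu.2 line 3. Its means were 6.92 ± 0.36 and 7.45 ± 0.23 (SD, n = 3 lines each), a log2 difference of 0.54 (standard error 0.20). Without vector line 3 the difference was 0.74, and with any other line left out it was 0.40 to 0.67. TEC, which gave this family its name, had 7.92, 8.26 and 7.51 in the vector lines against 8.32, 8.05 and 7.77 in the pEF1a-Pu.2 lines. Its log2 difference of 0.15 (standard error 0.21) was below the spread between lines and became -0.04 without vector line 3.

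Among the Src family members, FYN and LYN showed opposite signs of the difference and neither separated the groups. FYN, a widely expressed Src family kinase, had 6.09, 6.67 and 7.28 in the vector lines against 8.13, 7.11 and 6.97 in the pEF1a-Pu.2 lines. The log2 difference was 0.73 (standard error 0.36) and ran from 0.36 without pEF1a-Pu.2 line 1, and 0.43 without vector line 1, to 1.02 without vector line 3. Its lines spread widely within both groups. The pooled within-group SD of 0.61 was above that of 98.2% of all genes. LYN, which both starts ITAM signals and restrains them through inhibitory receptors, had 9.03, 9.32 and 9.31 in the vector lines against 8.74, 8.85 and 9.04 in the pEF1a-Pu.2 lines. The groups met at 9.03 and 9.04, with a log2 difference of -0.34 (standard error 0.14). FGR, a Src family kinase of granulocytes and monocytes, had 5.59 to 5.82 in the vector lines against 5.64 to 5.93 in the pEF1a-Pu.2 lines. LCK, the Src family kinase of T cells, had 5.26 to 5.54 and 5.41 to 5.74. Their log2 differences were 0.05 (standard error 0.13) and 0.13 (standard error 0.14), and the groups overlapped in both genes.

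PLCG2, the phospholipase at the end of this relay, was read by 2 probe sets that gave different levels and different orders of the lines. The brighter one had 9.31, 8.79 and 8.84 in the vector lines against 9.13, 9.11 and 8.06 in the pEF1a-Pu.2 lines, and the dimmer one 5.21, 5.30 and 4.90 and then 5.04, 4.76 and 4.99. Every value of the dimmer one lay below the median of all probe sets and cannot be told from background, so nothing is read from its order of the lines. Line 3 of the pEF1a-Pu.2 group was the lowest on the brighter probe set and lay inside the range of the other lines on the dimmer one. The log2 differences were -0.22 (standard error 0.29) and -0.21 (standard error 0.15, from a fit over all probe sets). On the brighter probe set, which was used for the gene, the sign rested on that line, since without it the difference was 0.14.

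Taking the 9 genes as a set, 1 of them was called by limma over all genes, SYK, where the background was 0.369% of all 18417 genes in either direction and 0.223% for lower ones. The groups did not overlap in 1 of 9, beside 13.8% of all genes. The count was 0 without pEF1a-Pu.2 line 1 or line 3, where the SYK difference was -1.42 and -1.51. The median log2 difference of the 9 was 0.05, beside 0.02 over all genes. Since the genes were proposed with this comparison known, nothing is read from these counts.

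**Figure D2:**
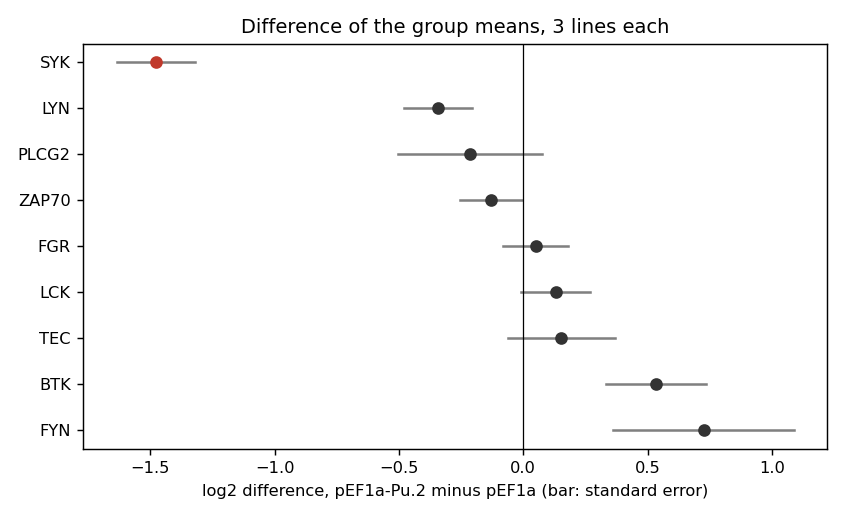
Log2 difference of the group means (horizontal axis, pEF1a-Pu.2 minus pEF1a, n = 3 lines each) of the 9 genes, with bars of 1 standard error from limma to each side. The red point marks the gene in which the groups do not overlap, SYK at -1.48, and the other differences lie between -0.34 and 0.73.

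PU.2 keeps the ETS domain, and the study's binding probe held the PU.1 consensus GAGGAA. The windows from 250 bases before to 50 bases after annotated transcript starts (RefSeq, GRCh38.p14) were therefore searched for these letters on both strands. Of the 9 genes 8 matched by symbol, all but LYN, with 18 windows. GAGGAA was found in 8 of the 18 windows and in 5 of the 8 genes, SYK, ZAP70, BTK, FGR and PLCG2, beside 27.9% of all 35116 windows and 31.8% of 27305 genes. The 8 genes had more windows per gene than the 27305, which raises the share with a match in any window. The gene shares are thus not on like terms, and nothing is read from them. The shorter ETS core GGAA, which every GAGGAA also holds, was in 16 of the 18 windows and in 95.5% of all windows. The windows of SYK, of BTK and of FGR that held the letters most often are shown, with a further one of SYK, because SYK was the lower gene, BTK had a positive difference and FGR had one near 0. Letters are written 5′ to 3′ on the strand of the gene, and capitals mark GAGGAA or its reverse complement TTCCTC.
SYK window at chr9:90801569-90801868, plus strand: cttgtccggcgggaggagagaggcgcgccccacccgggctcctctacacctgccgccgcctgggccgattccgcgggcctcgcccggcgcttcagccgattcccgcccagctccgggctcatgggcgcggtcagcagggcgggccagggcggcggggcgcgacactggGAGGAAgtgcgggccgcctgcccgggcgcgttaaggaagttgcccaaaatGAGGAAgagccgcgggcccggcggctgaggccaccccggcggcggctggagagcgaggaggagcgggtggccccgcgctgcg
SYK window at chr9:90827170-90827469, plus strand: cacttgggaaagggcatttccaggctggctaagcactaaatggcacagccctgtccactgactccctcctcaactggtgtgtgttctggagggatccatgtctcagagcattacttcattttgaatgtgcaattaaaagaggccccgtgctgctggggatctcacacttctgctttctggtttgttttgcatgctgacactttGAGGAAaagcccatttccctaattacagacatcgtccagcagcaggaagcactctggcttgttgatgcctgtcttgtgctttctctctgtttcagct
BTK window at chrX:101390747-101391046, minus strand: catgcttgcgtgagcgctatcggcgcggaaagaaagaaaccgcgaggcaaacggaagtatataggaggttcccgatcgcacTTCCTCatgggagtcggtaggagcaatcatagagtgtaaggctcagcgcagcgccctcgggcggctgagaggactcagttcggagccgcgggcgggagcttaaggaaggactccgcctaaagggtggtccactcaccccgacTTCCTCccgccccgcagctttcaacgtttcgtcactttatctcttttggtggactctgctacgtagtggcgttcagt
FGR window at chr1:27635136-27635435, minus strand: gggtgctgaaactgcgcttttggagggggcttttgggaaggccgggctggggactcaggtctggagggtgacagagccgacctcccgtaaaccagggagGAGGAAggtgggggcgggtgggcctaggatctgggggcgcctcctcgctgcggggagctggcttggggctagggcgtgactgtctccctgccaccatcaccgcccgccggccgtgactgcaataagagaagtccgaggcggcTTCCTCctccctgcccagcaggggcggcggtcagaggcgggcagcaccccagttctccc
The first SYK window holds GAGGAA 82 and 32 bases before the transcript start and shares its first 81 bases with another SYK window that holds none. The BTK window holds the reverse complement 169 and 27 bases before the start, and the FGR window holds GAGGAA 151 bases and TTCCTC 9 bases before it. SYK at -1.48, BTK at 0.54 and FGR at 0.05 thus each had 2 matches in 1 window. The further SYK window shown holds 1 match, 47 bases before the start, and BTK had 1 more in a window not shown. ZAP70 at -0.13 and PLCG2 at -0.22 also had matches, with at most 1 in a window. The 4 windows of FYN, the 2 of LCK and the 1 of TEC held none, with log2 differences of 0.73, 0.13 and 0.15. A match is only a run of letters, and binding of PU.2 was not measured here.

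The partners of these kinases were followed in 6 lists by role, 67 measured genes of 76 listed. The lists were chosen with earlier results of these data known, so nothing about the pathway is read from the counts in them. The other 9 were not analysed here. ITPR1, a receptor for the messenger that PLCG2 makes and a calcium channel of the endoplasmic reticulum, was the partner called by limma over all genes. Its log2 value was 6.52, 6.92 and 7.10 in the vector lines against 5.82, 5.68 and 5.44 in the pEF1a-Pu.2 lines. The groups did not overlap, and ITPR1 was lower with a log2 difference of -1.20 (standard error 0.18, adjusted p = 0.037 from limma; 0.015 to 0.19 over the alternatives). When each line was left out in turn, ITPR1 stayed past the threshold in 2 of 6 fits, those lacking vector line 1 or 3, and in the other 4 it had an adjusted p of 0.094 to 0.19 with a difference of -1.29 to -1.10. It also missed the threshold with each array centred on its median (adjusted p = 0.080). Over the 67 partners 1 was called, beside 0.369% of all genes. Before adjustment, 1 was higher and 9 were lower with a p under 0.05, beside 3.83% and 5.7% of all genes. The groups did not overlap in 3 higher and 8 lower, beside 7.02% and 6.8%. The median log2 difference of the 67 was -0.005, beside 0.02 over all genes.

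The list of genes downstream of PLCG2 also held genes that are not downstream of it. These were its paralog PLCG1, and PIK3CD and PIK3R1, which encode subunits of phosphoinositide 3-kinase. In this list 20 genes were measured, of which 1 was called lower, beside 0.223% of all genes. Before adjustment 5 of them were lower with a p under 0.05, and 0 higher, beside 5.7% and 3.83% of all genes. As the list was chosen with earlier results known, these counts are no evidence about the genes downstream of PLCG2. The protein kinase C genes PRKCD and PRKCA, whose products the lipid messenger activates, had log2 differences of -0.61 (standard error 0.14, adjusted p = 0.17) and -0.58 (standard error 0.24, adjusted p = 0.50 from limma). PRKCD had 6.70, 7.04 and 7.06 in the vector lines against 6.39, 6.40 and 6.18 in the pEF1a-Pu.2 lines, without overlap. In PRKCA vector line 3 lay at 7.48, inside the pEF1a-Pu.2 range of 7.23 to 7.61, and the other vector lines at 8.19 and 8.46. Its difference was -0.86 without vector line 3 and -0.37 without vector line 2.

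Of 15 measured adaptors and exchange factors none was called by limma. With no adjustment, a p under 0.05 was reached by 0 that were higher and by 3 that were lower, beside 3.83% and 5.7% of all genes. LCP2, which encodes SLP-76, an adaptor that SYK and ZAP70 phosphorylate, had the largest difference of all the partners. Its log2 value was 9.28, 9.89 and 6.19 in vector lines 1, 2 and 3 and 5.38, 5.30 and 5.42 in the pEF1a-Pu.2 lines. Vector line 3 lay far below the other vector lines and yet above each pEF1a-Pu.2 line. The log2 difference was -3.08 (standard error 0.80, adjusted p = 0.23 from limma). Leaving out vector line 3 gave -4.22 (adjusted p = 1.37e-05 from limma, and 1.37e-05 to 0.68 over the alternatives). That line was singled out on these same arrays as nearer the other group, so the fit without it is a description only. GAB2, an adaptor that BCR-ABL1 also uses, had 9.10, 8.73 and 7.46 in the vector lines against 7.56 to 7.77 in the pEF1a-Pu.2 lines, a log2 difference of -0.77 (adjusted p = 0.58). HCLS1, a hematopoietic actin regulator and substrate of LYN and SYK, had 7.09, 6.41 and 4.79 and then 4.94, 5.96 and 4.67, a log2 difference of -0.90 (adjusted p = 0.70). In HCLS1 vector line 3 lay inside the pEF1a-Pu.2 range, and in GAB2 just below it. The difference of GAB2 was -1.25 without vector line 3 and -0.43 without vector line 1, and that of HCLS1 -1.56 and -0.41.

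Of 11 measured ITAM chains and receptors none was called by limma. With no adjustment, a p under 0.05 was reached by 1 that was higher and by 1 that was lower, beside 3.83% and 5.7% of all genes. CD3D, an ITAM chain of the T cell receptor, had 6.74, 6.98 and 6.08 in the vector lines against 5.34, 5.58 and 5.12 in the pEF1a-Pu.2 lines, without overlap (log2 difference -1.25, adjusted p = 0.090 from limma). The other T cell chains CD3E and CD3G differed by -0.11 and -0.05. Every value of both lay below the median of all probe sets and cannot be told from background here. FCGR2A, an Fc receptor with an ITAM of its own, had 8.86, 9.34 and 4.14 in the vector lines against 4.01 to 5.48 in the pEF1a-Pu.2 lines, so that vector line 3 lay inside the range of the other group. Its log2 difference was -2.64 (adjusted p = 0.55 from limma) and -1.69 without vector line 2. Without vector line 3, singled out on these same arrays, the difference was -4.29 (adjusted p = 0.000429 from limma, and 0.000429 to 0.9999 over the alternatives). That fit is a description only. The platelet receptor CLEC1B, which signals through SYK, had a log2 difference of 0.33 (adjusted p = 0.52 from limma) at values of 2.89 to 3.52, all below the median of all probe sets.

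Of 16 measured regulators of these kinases none was called by limma, and with no adjustment 0 reached a p under 0.05, beside 9.53% of all genes. PTPRC, which encodes CD45, the phosphatase that frees Src family kinases from their inhibitory tail, had 9.51, 9.88 and 4.08 in vector lines 1, 2 and 3 and 10.77, 9.19 and 11.06 in the pEF1a-Pu.2 lines. A single line, vector line 3, lay 5.11 below the next lowest line. The log2 difference was 2.52 (standard error 1.37, adjusted p = 0.65 from limma) and 0.64 without that line (adjusted p = 0.73; 0.41 to 0.95 over the alternatives). DOK3, an adaptor that restrains receptor signals, had a log2 difference of 0.40 (adjusted p = 0.82), and CBLB, a ubiquitin ligase that limits these signals, one of -0.45 (adjusted p = 0.79). Both moved with single lines. DOK3 had -0.007 without vector line 3 and 0.71 without vector line 1, and CBLB had -0.84 without vector line 3 and -0.10 without vector line 2. Of the 4 other Src family kinases measured, YES1, BLK and FRK had log2 differences of -0.17, 0.06 and 0.11, and the TEC family kinase TXK one of 0.13, with adjusted p of 0.85, 0.94, 0.94 and 0.92 from limma. In YES1, BLK, FRK and TXK the groups overlapped, and the difference of each took both signs as single lines were left out.

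**Figure D3:**
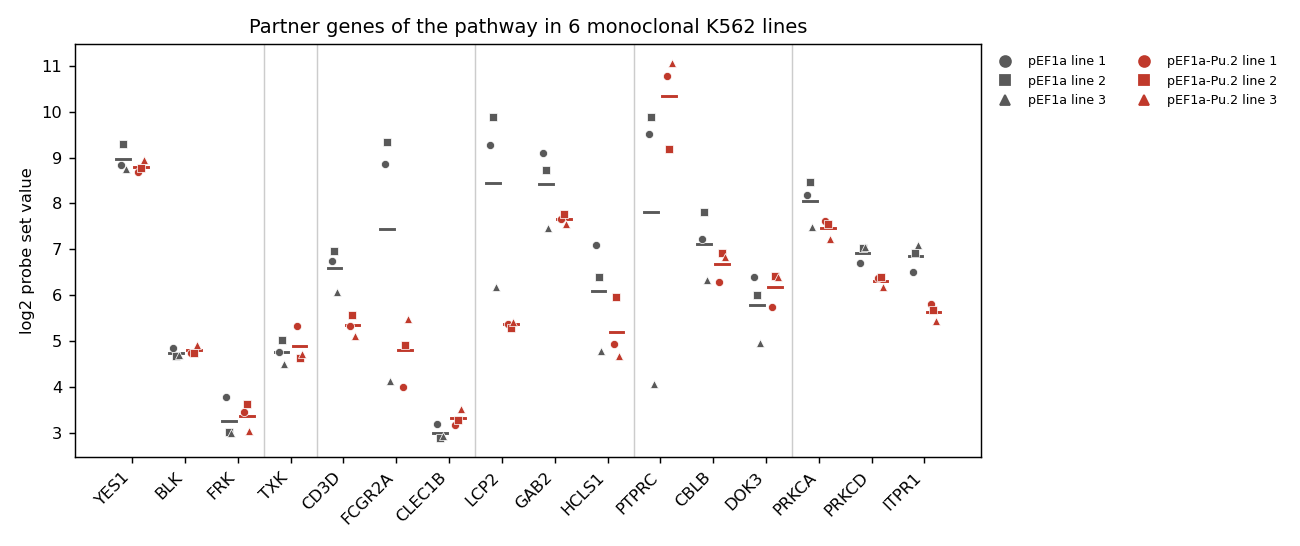
Log2 probe set values (vertical axis) of 16 partner genes, in the order other Src family kinases, TEC family, ITAM chains and receptors, adaptors, regulators, and genes downstream of PLCG2, parted by gray lines. Each symbol is 1 clone, each bar a mean of 3 clones (gray, pEF1a, and red, pEF1a-Pu.2), and heights are comparable within a gene only. Vector line 3, the gray triangle, is at 4.08 in PTPRC, 4.14 in FCGR2A and 6.19 in LCP2, away from the other gray symbols.

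Without vector line 3, 8 of the 67 partners were called by limma (11.9%), beside 2.35% of all genes. These were LCP2, FCGR2A, CD3D, GAB2, ITPR1, PRKCA and VAV1, all lower, and RASGRP1, higher. With all 6 lines 1 of the 67 was called. Vector line 3 was singled out on these same arrays, where it lay nearer the pEF1a-Pu.2 lines. Leaving it out also raised the calls over all genes to 432, so the calls without it are a description only. The partner lists were chosen with earlier results of these data known, so nothing about the pathway is read from the share of 11.9%. VAV1 and RASGRP1 were named after their values were seen. VAV1, an exchange factor that SYK phosphorylates, had 5.52, 5.45 and 5.20 in the vector lines against 4.84, 4.69 and 4.59 in the pEF1a-Pu.2 lines, a log2 difference of -0.68 (adjusted p = 0.11 from limma). RASGRP1, a diacylglycerol-activated exchange factor, had 4.82, 5.03 and 6.72 in the vector lines against 5.60 to 5.86 in the pEF1a-Pu.2 lines, so that vector line 3 was the highest of all. In SYK vector line 3 was the lowest vector line, at 6.24, and lay 1.09 above the highest pEF1a-Pu.2 line. Since SYK was named with the group differences known, this is a description and no contrast with the partners is drawn from it.

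The genes with values most like a member's over the 6 lines were taken for each member with at least 1 log2 unit between its highest and lowest line, SYK, FYN and PLCG2. Likeness was the root mean square difference over the 6 lines after each gene was centred on its own mean. SYK was closest to CAVIN2 at 0.13, TRIM38 at 0.15 and UBXN10 at 0.18. Their log2 differences of -1.51, -1.64 and -1.48 lay near that of SYK, the value on which SYK was selected. In CAVIN2, which encodes a coat protein of caveolae, the vector lines had 6.73, 6.97 and 6.44 and the pEF1a-Pu.2 lines 5.28, 5.08 and 5.24. FYN was closest to LTBP1 at 0.12, ZNF780B at 0.18 and NPL at 0.20. In these 3 genes, as in FYN, vector line 1 was the lowest and pEF1a-Pu.2 line 1 the highest of the 6. PLCG2, on its brighter probe set, was closest to SMIM19 at 0.07, CIAO2B at 0.07 and SWI5 at 0.12, each lowest in pEF1a-Pu.2 line 3. The genes were chosen for likeness to each member, so a lowest or highest line shared with it follows largely from that choice. With 6 arrays such likeness is a description of these lines only.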

How the data were processed

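Total RNA of 6 monoclonal K562 lines, 3 with empty pEF1a and 3 with pEF1a-Pu.2, was measured on Affymetrix Human Gene 1.0 ST arrays, 1 per line. The authors used Affymetrix Expression Console, and the deposited table holds a log2 value for each probe set on each array. Its algorithm and version are not given in the sources consulted, so it is unknown how background and summarization shaped dim probe sets. The values ran from 1.71 to 13.90, and array medians were not equal. The labels name an insect cell medium for these lines, whereas the paper names RPMI for K562. No batch was given. The number of arrays limits the precision.

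Probe sets were named through the platform annotation. Of 33297 probe sets, 19460 carried 1 symbol, 1754 several and 12083 none here. Gene IDs of 19429 were found in the gene table of GRCh38.p14, and 0 symbols changed. Where a gene had several (769 genes), the one with the highest mean stood for it, which left 18417 genes, without a filter. The group comparison used lmFit and eBayes, with no trend, of limma 3.58.1 (R 4.3.3), and p-values were adjusted by Benjamini-Hochberg over all genes, with a threshold of 0.05. The members and lists were chosen with earlier results of these data known. The rule for named genes took all members, of each partner list the genes called and the 3 with the largest absolute differences, and 3 genes by likeness for each member whose lines spanned at least 1 log2 unit. A protein comparison was planned and not made here. Alternative settings were leaving out each line, a block on the replicate number, a filter at the median level, quantile normalization, median centring, averaging all probe sets of a gene, and eBayes with trend and robust fit. The steps were tested on simulated data for this comparison over 18417 genes, where 11 of 50 changed genes were recovered at 1.5-fold, 33 of 50 at 2-fold, 49 of 50 at 4-fold and 50 of 50 at 8-fold, with 7 false calls among 150. The simulated noise was normal and independent between genes and lines, with 1 SD per gene. No simulated line stood apart as vector line 3 did, so these counts test the steps and do not give the recovery on the real arrays. Promoter windows came from RefSeq, build GRCh38.p14.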

Additional observations from a re-analysis of the deposited data

How the results depend on the processing

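The SYK difference ran from -1.63 to -1.39 with 1 line left out and from -1.51 to -1.48 under the others. Its groups lay 1.09 apart, so leaving out 1 line could not change the sign. The block, the level filter, the eBayes options and the averaging of probe sets leave the SYK difference as it was by construction. SYK was named with this difference known, so the range is a description only. The number of the 9 genes called was 1, and 0 to 1 with 1 line left out. The number of partners called was 1, ITPR1, but 0 with each array centred on its median, and 0 to 8 with 1 line left out, with 8 without vector line 3. Over all genes, 27 were higher and 41 lower. With median centring 17 were higher, and with 1 line left out 8 to 159 were higher and 11 to 273 lower, the highest counts again without vector line 3. The median difference over all genes moved from 0.02 to -0.02 with that centring. With the replicate number as a block 23 genes were higher and 41 lower, and the partner called was CD3D in place of ITPR1 (adjusted p = 0.091). Deviations of same-numbered lines from their group means correlated over genes at r = -0.15, -0.15 and -0.04, and those of differently numbered lines at -0.004 to 0.12. These values cannot show whether same-numbered lines were handled together. No pairing was given, so the lines were not treated as pairs. The causes of these changes were not tested. No detection calls were used here, so low values such as those of ZAP70, and of SYK in the pEF1a-Pu.2 lines, cannot be told from background here.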
